A study of Zea mays with 2 samples.

Results

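The loci described here are the long nuclear loci of the maize kernel transcriptome, which are the listed positions on chromosomes 1 to 10 that span 20000 bp or more. A locus was kept when each library that listed it gave it exactly 1 FPKM value, and neither the level nor the change between genotypes was used to choose it. Of the 34022 positions listed in either library, 597 met this rule. They make up 1.76% of the 33949 nuclear positions. RNA was sequenced from kernels at 15 DAP (days after pollination), with 1 library for the wild type (WT) and 1 for the ZmMADS47 RNAi genotype. By the account of the methods, kernels from selfed heterozygotes of RNAi line 3 were typed by PCR, the non-transgenic ones were pooled as WT, and the transgenic ones were pooled as RNAi. On that account both pools come from the same transgenic line, made by transformation of HiII parents and backcrossed into the inbred W22. Another passage of the methods names RNAi lines and control lines in the plural, so the source of the pools is not fully settled. The RNAi pool alone carries a hairpin of a ZmMADS47 cDNA fragment under a γ-zein promoter chosen for expression in the endosperm, and its effect cannot be told apart from other genetic differences between the pools. The labels give the tissue as endosperm and the paper speaks of kernels, and since the files hold positions without gene names, no endosperm marker gene could be looked up. The series text speaks of triplicates, but 1 file per genotype was analysed, so no value has a replicate error, no test between genotypes was possible, and every ratio below describes these 2 libraries.

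In maize a gene can extend over many kilobases because its introns hold transposable elements, mostly retrotransposons, which are removed when the transcript is spliced. The span of a locus therefore counts introns as well as exons. FPKM divides the fragments of a locus by its exon length and by the mapped total of the library, so a long span does not by itself raise or lower it. ZmMADS47 is one of these long genes. It encodes a MADS-box transcription factor that partners Opaque2, the bZIP activator of many zein storage protein genes. The files list positions and FPKM with no exons, strand or read counts. Exon length and read depth behind each value are thus unknown, and no counting error could be attached.

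The ZmMADS47 locus lies on chromosome 1 from 17965514 to 17987077 (AGPv2, counted from 1) and spans 21564 bp. It was found through the chromosome interval given for the gene by the study, with which it shares 20745 bp. Its FPKM was 8.79 in WT and 4.01 in RNAi. The library labelled RNAi thus had the lower value, with a ratio of 0.457. Among the 335 long loci that averaged 5 FPKM or more this was the smallest ratio. The rank depends on that limit, since several long loci with a lower mean had smaller ratios. The smallest was 0.186 among the 476 listed in both libraries that reached 1 FPKM in either. Of those with smaller ratios, 2 on chromosome 1 were above 5 FPKM in WT. The locus from 19789491 to 19814550 had 6.64 in WT and 2.97 in RNAi, a ratio of 0.447, and the locus from 103264053 to 103316049 had 5.87 and 2.37 in the same order, a ratio of 0.404. Both were singled out after their values were seen. The locus next to it on the left, 715 bp away, had an FPKM of 14.3 in WT and 15.3 in RNAi. That neighbour was close to equal in both libraries. The transgene carries part of the ZmMADS47 coding sequence, and the files do not show whether its reads enter the RNAi value.

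The 597 spans ran from 20019 bp to 153143 bp with a median of 27088 bp, and 11 loci spanned 100 kb or more. Together they cover 20.2 Mb. None of the 597 overlapped another listed position, and neither did any other nuclear position in the files. A long locus is therefore a stretch in which nothing else was listed. Whether each position is 1 gene model or a stretch joined from several cannot be read from the files. The rule on single values removed 213 of the 810 nuclear positions of this span, or 26.3%, against 11.9% of the 28028 positions of 1 to 20 kb (here and below the upper limit of a span range is not included). The share of positions holding several values was 22.1% at 20 to 30 kb and 38.6% at 50 to 100 kb. At the limit itself, the 3 shortest members (20019, 20028 and 20049 bp) had WT FPKM values of 11.4, 3.36 and 1.06. The 3 longest loci below it (19938, 19951 and 19987 bp) had 6.17, 3.85 and 14.5.

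Most long loci were expressed at a middling level in WT kernels. Of the 597, 568 were listed in the WT library, with a median FPKM of 6.22, quartiles of 1.91 and 13.9, and a range from 0.0343 to 1779. The 23052 single-value loci of 1 to 20 kb listed in WT had a lower median of 3.68 and a lower quartile of 0.801, also below that of the long loci. Their upper quartile of 11.8 was close to that of the long loci. The long loci differed mainly at the low end. In WT, 98 of 568 long loci (17.3%) were below 1 FPKM, against 28.2% of the shorter loci. Values of 3 to under 30 FPKM were held by 351 long loci (61.8%), against 45.3%. At 100 FPKM or more the order was the other way, with 5 long loci (0.880%) against 1.58%. The RNAi library gave the same picture, with a median of 6.92 for 569 long loci and 3.91 for 22886 shorter ones.

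**Figure D1:**
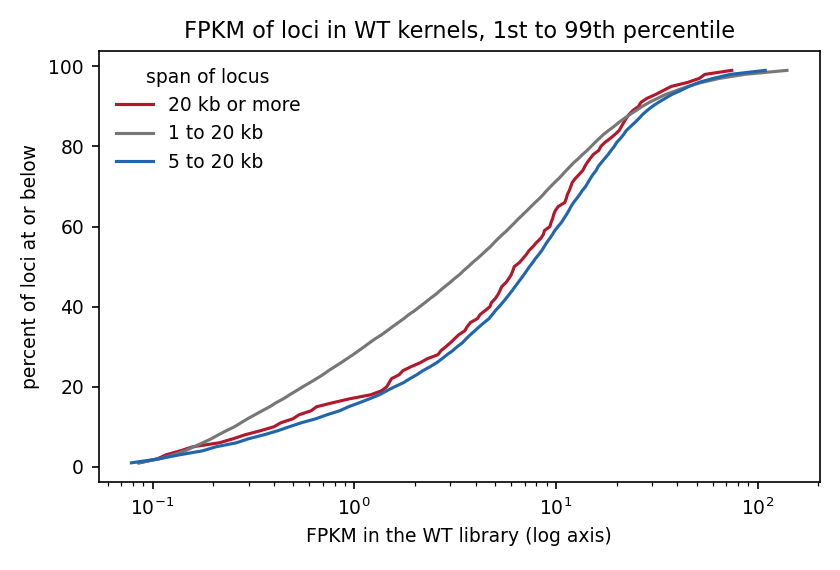
Percent of loci (y axis) at or below each WT FPKM (x axis, log scale) for loci of 20000 bp or more and for single-value loci of 1 to 20 kb and 5 to 20 kb. The curve of the long loci (median 6.22) runs near that of the 5 to 20 kb loci (median 7.41) and to the right of the 1 to 20 kb loci (median 3.68) over most of its course.

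Much of this contrast lay with the shortest of the comparison loci. When these were restricted to 5 to 20 kb, their WT median was 7.41 and 15.5% were below 1 FPKM, so the long loci were slightly lower than this group. Across span classes the WT median was 1.32 at 1 to 2 kb, 3.78 at 2 to 5 kb and 7.14 at 5 to 10 kb. It was highest, at 8.16, at 10 to 20 kb. Within the long loci the median was lower in each longer class. The 364 loci of 20 to 30 kb had a median of 7.39, the 160 of 30 to 50 kb 5.59, the 62 of 50 to 100 kb 4.07, and the 11 of 100 kb or more 1.86. The quartiles of neighbouring classes overlapped widely (2.71 and 15.3 at 20 to 30 kb, 1.68 and 12.2 at 30 to 50 kb). Over the 568 loci the rank correlation of span with WT FPKM was only -0.11, so span said little about the level of a given long locus. The RNAi library had medians of 8.23, 6.68, 3.43 and 2.07 in the same 4 classes.

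**Figure D2:**
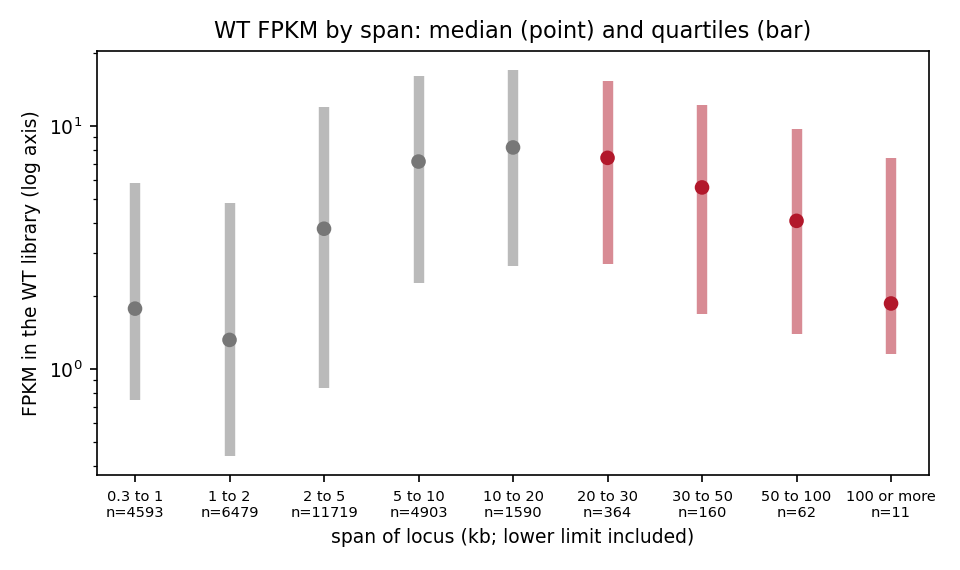
Median (point) and quartiles (bar) of WT FPKM (y axis, log scale) for single-value nuclear loci by span in kb (x axis, number of loci below each class), with loci of 20000 bp or more in red. The median is highest at 8.16 in the 10 to 20 kb class and is 7.39, 5.59, 4.07 and 1.86 in the classes of long loci.

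The 5 long loci with the highest mean FPKM held 2 values far above the others. The highest lies on chromosome 5 from 159683411 to 159730650, and its FPKM was 1779 in WT and 1139 in RNAi. It was lower in RNAi, with a ratio of 0.640. The next lies on chromosome 1 from 162031509 to 162081082, with 437 in WT and 241 in RNAi, a ratio of 0.551. Both were below the study's lower fold limit of 0.71. The other 3 lay close to 100 FPKM and did not share that direction. The locus on chromosome 2 from 71110426 to 71138423 had 131 in WT and 129.7 in RNAi. The locus on chromosome 4 from 32395 to 63643 had 116 and 117 in the same order. Both were nearly equal in the libraries. The locus on chromosome 7 from 173194135 to 173216721 had 79.4 in WT and 121 in RNAi, a ratio of 1.52. The files do not pair any of these positions with a gene name.

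Both of the highest long loci have an abundant compact neighbour on their farther side, a point looked at after their values were seen. On chromosome 1 the nearest listed locus to the left is 39842 bp away, spans 726 bp and had 5753 FPKM in WT and 3129 in RNAi. Its ratio of 0.544 was close to the 0.551 of the long locus. On chromosome 5 the nearest locus to the right is 27216 bp away, spans 939 bp and had 598 in WT and 473 in RNAi, a ratio of 0.791 that did not reach the limit. The nearer neighbour on the other side was weak in both cases. On chromosome 1 it was 22127 bp away, with 1.01 in WT and 0.346 in RNAi. On chromosome 5 it was 11390 bp away, with 3.46 in WT and 3.27 in RNAi, a ratio of 0.945. The highest 2 long loci held 26.4% of the summed FPKM of all long loci in WT and 17.3% in RNAi. All long loci together summed to 8391 FPKM in WT, or 0.676% of the nuclear total, and to 7983 in RNAi, or 0.724%. The RNAi over WT ratio of these sums was 0.951, and without the highest 2 loci it was 1.07. The direction of the sum thus turned without those 2 loci. It also turned with scaling to the same total, which gave 1.07 with all long loci kept. It did not turn when RNAi was divided by the median ratio of loci reaching 10 FPKM in both libraries. That gave 0.905 with all long loci and 1.02 without the highest 2.

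The 3 longest loci show how little span alone fixed the level. The longest, on chromosome 10 from 55603292 to 55756434 (153143 bp), had an FPKM of 3.76 in WT and 8.43 in RNAi. The second, on chromosome 5 from 50879297 to 51027542 (148246 bp), had 1.04 in WT and 0.755 in RNAi. The third, on chromosome 5 from 105644743 to 105781509 (136767 bp), had 21.0 in WT and 21.3 in RNAi. WT levels of these 3 loci thus ran from 1.04 to 21.0. The third lies only 1162 bp from another long locus of 56347 bp, which had 0.904 in WT and 0.439 in RNAi. On its other side no position was listed for 435777 bp.

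Long loci were spread over all 10 chromosomes, from 96 on chromosome 1 to 42 on chromosome 8. Chromosome 1 held 16.1% of them and 15.4% of the loci of 1 to 20 kb. Per 1000 such shorter loci the number of long loci ranged from 18.2 on chromosome 8 to 28.1 on chromosome 4. The median WT FPKM of long loci by chromosome ranged from 4.44 on chromosome 9 to 8.77 on chromosome 4. No chromosome lacked them.

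Along a chromosome they were distributed more evenly than shorter loci. The listed range of each chromosome was divided into 10 equal bins. The outermost bin at each end together held 155 long loci (26.0%), against 33.1% of the loci of 1 to 20 kb. The middle 4 bins held 188 long loci (31.5%), against 25.3%. Loci of 10 to 20 kb lay between, with 29.5% at the ends and 28.9% in the middle. The longer members sat further in, with a median span of 29353 bp in the middle 4 bins and 24442 bp at the ends. Centromere positions were not used here, so bins are not chromosome arms.

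Long loci also had sparser surroundings. Within 1 Mb of its midpoint a long locus had a median of 35 other listed loci, with quartiles of 21 and 48. A locus of 1 to 20 kb had a median of 40, with quartiles of 27 and 53. The distance to the nearest listed locus had a median of 10630 bp for long loci and 5719 bp for the shorter ones, and it was 100 kb or more for 54 long loci (9.05%) against 4.89%. For loci of 10 to 20 kb the median neighbour number was 38 and the median distance 9810 bp, with 7.42% at 100 kb or more. Long loci of 20 to 30 kb had medians of 38 and 8230 bp, so these were no sparser by either median. Loci with under 20 listed neighbours within 1 Mb made up 138 of the 597 (23.1%), against 11.7% of the loci of 1 to 20 kb. Among loci of 10 to 20 kb the share was 13.8%. These 138 were not weakly expressed. Their median WT FPKM was 7.75, against 6.12 for the 247 long loci with 40 or more neighbours. The shorter loci had the opposite order, with 2.57 in sparse and 4.14 in dense surroundings. Loci of 5 to 20 kb had 5.65 and 7.73, so this order was shared by them and not by the long loci. Loci of 10 to 20 kb lay near equality, with 8.22 and 8.02. The quartiles of the long loci in sparse surroundings (3.16 and 14.1) and in dense surroundings (2.02 and 13.6) overlap over most of their range. Across the 568 long loci listed in WT the rank correlation of neighbour number with WT FPKM was -0.016.

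**Figure D3:**
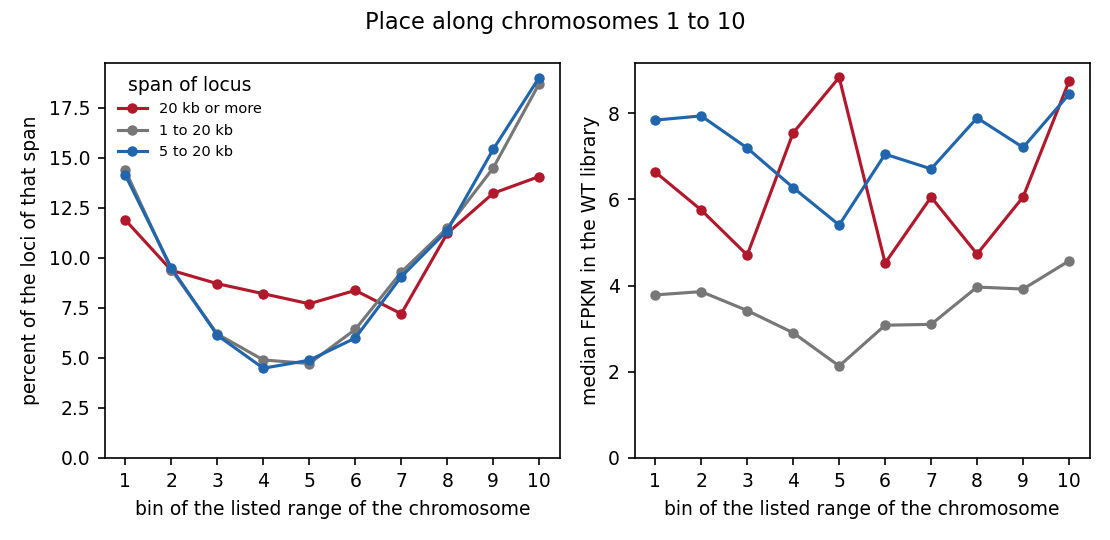
Left, percent of the loci of each span group that lie in each of 10 equal bins of the listed range of their chromosome, summed over chromosomes 1 to 10. Right, median WT FPKM of the same loci. The middle 4 bins hold 31.5% of the loci of 20000 bp or more and 25.3% of those of 1 to 20 kb, and the medians of the long loci lie between 4.52 and 8.83.

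Of the 597 long loci 540 were listed in both libraries, 29 only in RNAi and 28 only in WT. The 57 loci listed in 1 library were nearly all at very low level, with a median FPKM of 0.153, and 2 of them reached 1. The highest listed only in RNAi was on chromosome 9 from 129012304 to 129042156 with 1.44 FPKM. The next were on chromosome 1 from 81975094 to 82006749 with 0.892 and on chromosome 6 from 42405239 to 42432330 with 0.796. The highest listed only in WT was on chromosome 9 from 141096817 to 141120119 with 2.74. It was followed by loci on chromosome 3 from 232049326 to 232071141 with 0.995 and on chromosome 5 from 160093191 to 160123117 with 0.639. No long locus above 3 FPKM was listed in 1 library alone. The share listed in 1 library was 9.55% for long loci and 13.9% for loci of 1 to 20 kb. After weighting the shorter loci to the levels of the long ones, by classes of the higher listed value, their share was 10.6%. With loci of 5 to 20 kb it was 8.32%, so the long loci lay between both groups.

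The FPKM values of long loci were close to equal in RNAi and WT kernels. Over the 540 loci listed in both, the rank correlation between the libraries was 0.98. Ratios were read for the 476 of these that reached 1 FPKM in either library. The other 64 were below 1 in both. The median RNAi over WT ratio was 1.06, or 0.087 on the log2 scale, with log2 quartiles of -0.11 and 0.29. Loci of 1 to 20 kb had a log2 median of 0.080. The medians of long and shorter loci were thus nearly equal.

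Past the fold limits of the methods, 51 of the 476 long loci (10.7%) were above 1.4 and 37 (7.77%) were below 0.71, and 388 lay between. Over all 20371 single-value nuclear loci compared in the same way, 17.1% were above 1.4 and 13.9% were below 0.71. Both shares of the long loci lay below those of the whole, which is a description without a test. The balance of directions depended on scaling. Dividing by the median ratio of loci reaching 10 FPKM in both libraries gave 40 above and 45 below, and scaling both libraries to the same total gave 103 above and 24 below. Each scaling shifts the ratios of all loci alike, and the shares over all nuclear loci under it are not given here. These counts therefore do not set the long loci apart. The study also required a P value, which needs read counts and was not computed. Past a limit of 2-fold in either direction there were 19 long loci (3.99%), against 9.72% of the loci of 1 to 20 kb. The share was 4.004% for loci of 5 to 20 kb and 3.46% for those of 10 to 20 kb, so against these the long loci were not fewer.

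**Figure D4:**
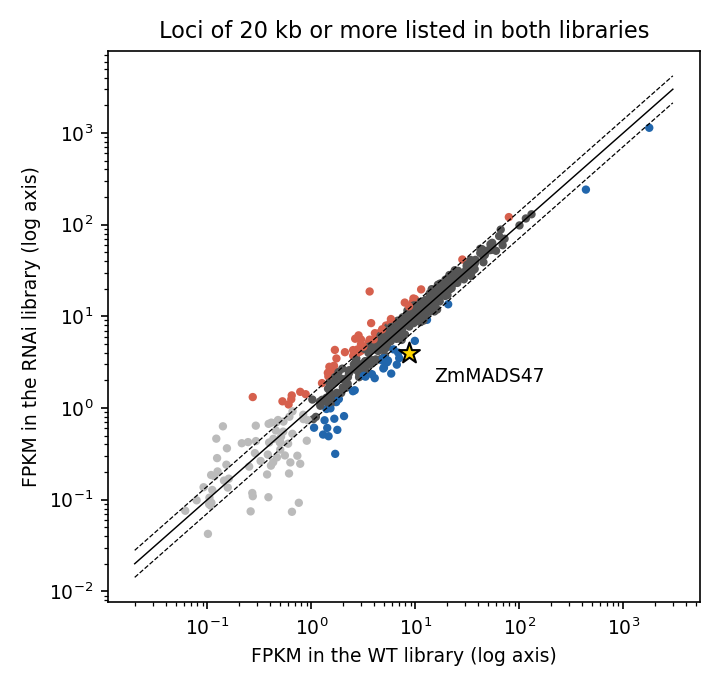
FPKM in the RNAi library (y axis) against the WT library (x axis), both on log scales, for the 540 long loci listed in both. The solid line is equality and the dashed lines are the ratios of 1.4 and 0.71. Loci above 1.4 are red, below 0.71 blue, between them dark grey, and below 1 FPKM in both libraries light grey. The star marks ZmMADS47, at 8.79 in WT and 4.01 in RNAi.

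Since low values scatter more, long and shorter loci were set side by side at similar FPKM, in classes of the geometric mean of both libraries. At 1 to under 3 FPKM, 26 of 71 long loci (36.6%) were past either limit, against 48.6% of the loci of 1 to 20 kb. At 3 to under 10 FPKM it was 38 of 172 (22.1%) against 24.3%, and at 10 to under 30 FPKM it was 9 of 177 (5.08%) against 8.95%. At 30 FPKM or more it was 4 of 43 (9.30%) against 6.67%, the opposite order on a count of 4. The quartile range of the log2 ratio was narrower for long loci in every class, for example 0.69 against 0.93 at 1 to under 3 FPKM and 0.29 against 0.32 at 10 to under 30 FPKM. Weighted to the classes of the long loci, the shorter loci would be above 1.4 in 13.0% and below 0.71 in 9.40% of cases, against the 10.7% and 7.77% observed.

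This difference again depended on the shortest comparison loci. With loci of 5 to 20 kb the weighted shares were 10.5% above and 6.60% below, so the long loci had slightly more loci past each limit than this group. Within the level of 3 to under 30 FPKM the quartile range of the log2 ratio was 0.66 at spans of 1 to 2 kb, 0.42 at 2 to 5 kb and 0.34 at 5 to 10 kb. It was 0.32 at 10 to 20 kb, then 0.33, 0.37 and 0.39 in the long classes of 20 to 30, 30 to 50 and 50 to 100 kb. The smallest of these ranges was at 10 to 20 kb, but the classes from 5 to 30 kb were nearly equal. The longest classes hold few loci (95 and 25 in the latter pair). At 100 kb or more the range was 0.52 on 4 loci. The files give neither exon length nor read number for these classes.

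**Figure D5:**
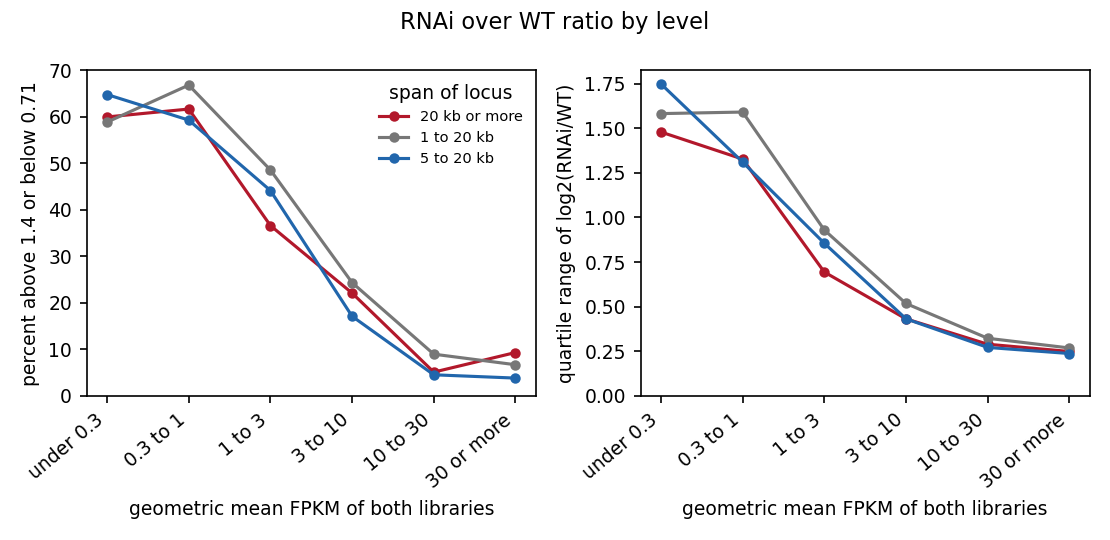
Left, percent of loci listed in both libraries with an RNAi over WT ratio above 1.4 or below 0.71, by class of the geometric mean FPKM. Right, quartile range of the log2 ratio in the same classes. Long loci (red) had 36.6% past the limits at 1 to 3 FPKM and 5.08% at 10 to 30 FPKM, and their quartile range lies below that of the 1 to 20 kb loci (grey) in each class.

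Where the mean reached 5 FPKM, 19 of the 335 long loci (5.67%) were above 1.4 and 9 (2.69%) were below 0.71. Over the 11784 single-value nuclear loci of that level the shares were 9.55% and 6.67%. That whole includes short loci. At 3 to under 30 FPKM, 48.8% of loci of 300 to 999 bp and 33.5% at 1 to 2 kb were past either limit. The share was 11.1% at 10 to 20 kb, 13.3% at 20 to 30 kb and 10.5% at 30 to 50 kb. It was higher in the longest classes, which hold few loci. There it was 24% of 25 loci at 50 to 100 kb and 25% of 4 loci at 100 kb or more. After ZmMADS47 the smallest ratio of the 335 long loci was on chromosome 3 from 229132662 to 229153796, with 6.998 in WT and 3.49 in RNAi, a ratio of 0.499. Its right neighbour, 36369 bp away, was near equal in both libraries, with 17.3 in WT and 16.0 in RNAi. The left neighbour, 41180 bp away, was listed only in RNAi, at 0.752. A locus of 68569 bp on chromosome 5 from 217612275 to 217680843 had 9.90 in WT and 5.39 in RNAi, a ratio of 0.545. The abundant chromosome 1 locus described above, at 0.551, came next. The fifth was on chromosome 10 from 81687756 to 81715797, with 6.84 in WT and 4.01 in RNAi, a ratio of 0.586. ZmMADS47 and the chromosome 3 locus were the only 2 of the 335 at less than 0.5 of WT.

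In the other direction 1 long locus stood apart. It lies on chromosome 10 from 144716135 to 144739736, spans 23602 bp and had an FPKM of 3.64 in WT and 18.7 in RNAi, a ratio of 5.13. Its right neighbour, only 1594 bp away, had 20.2 in WT and 12.1 in RNAi, a ratio of 0.600 in the opposite direction. The left neighbour was listed only in WT, at 1.77. The higher value in RNAi was thus limited to this position among its flanking loci. The second largest ratio, 2.24, belonged to the longest locus of all, on chromosome 10, given above. Its right neighbour, 140093 bp away, was also higher in RNAi, with 1.98 in WT and 4.61 in RNAi, whereas the left one had 28.2 and 24.6. These were the only long loci of that level above 2-fold.

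The remaining 3 of the largest 5 ratios were smaller and close to each other. On chromosome 6 from 84063178 to 84097051 the FPKM was 7.92 in WT and 14.1 in RNAi, a ratio of 1.78. On chromosome 10 from 119959043 to 119979590 it was 11.4 in WT and 19.7 in RNAi, a ratio of 1.73. On chromosome 8 from 6102792 to 6151038 it was 9.59 in WT and 15.7 in RNAi, a ratio of 1.63. Both neighbours of the chromosome 8 locus had smaller ratios, of 1.08 and 1.15. The left neighbour of the chromosome 10 locus was also higher in RNAi, with 2.51 in WT and 3.55 in RNAi, a ratio of 1.41, and the right one was listed only in WT. The chromosome 6 locus had a left neighbour at a ratio of 1.16 and a right neighbour at 2.26, the latter below 1 FPKM in both libraries. Of the 5 largest ratios 3 were on chromosome 10, where 5 long loci in all were above 1.4 and 4 below 0.71 among 37 compared. Over all single-value nuclear loci compared, a whole that includes short loci, 17.1% were above and 13.9% below. Over all 476 long loci compared the shares were 10.7% and 7.77%. With only 37 loci, neither an excess nor a lack on chromosome 10 can be read from these counts.

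Loci past the limits were found among long loci of every chromosome. The number above 1.4 ranged from 1 of 30 compared on chromosome 6 to 8 of 65 on chromosome 2 and 8 of 74 on chromosome 1. The number below 0.71 ranged from 1 of 32 on chromosome 8 to 9 of 74 on chromosome 1. Over all chromosomes, 17.1% of the single-value nuclear loci compared were above 1.4 and 13.9% below 0.71. In sparse surroundings (under 20 neighbours) 12 of 114 long loci were above and 9 below, and in dense surroundings (40 or more) 19 of 204 were above and 17 below. Loci of 1 to 20 kb had 17.0% above and 15.0% below in sparse surroundings, and 15.2% above and 10.9% below in dense ones. The long loci had 10.5% and 7.89% in sparse and 9.31% and 8.33% in dense surroundings. Loci of 10 to 20 kb had 9.5% above and 5.03% below in sparse surroundings, and 11.1% above and 5.25% below in dense ones. Against these the long loci had more below 0.71 in both surroundings, on counts of 9 and 17, and no common order above 1.4. Loci of 5 to 20 kb also had smaller shares below 0.71 than the long loci in both surroundings, but larger shares above 1.4. By span, 31 of 303 at 20 to 30 kb (10.2%) were above 1.4 and 20 (6.60%) below 0.71. Loci of 10 to 20 kb had shares of 10.1% and 5.45%. At 30 to 50 kb these were 12 and 11 of 122, at 50 to 100 kb 6 and 6 of 43, and at 100 kb or more 2 and 0 of 8.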

How the data were processed

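The authors deposited FPKM values above 0 by chromosome position, 34453 for RNAi and 34959 for WT, made according to the methods by TopHat alignment to AGPv2 and Cufflinks 2.1.1 on unique reads. The submitters' processing notes name Bowtie 0.12.2. Depth is not shown by the files, and ratios of low values did not fall on steps from which reads could be recovered. Values were joined by position, starts were counted from 1, and nuclear positions with 1 value in each listing library were kept. Ratios are RNAi over WT with no pseudocount for loci reaching 1 FPKM in either library, read against 1.4 and 0.71. Shorter loci were weighted to the long loci over geometric mean FPKM classes with limits at 0.3, 1, 3, 10 and 30. With 1 library per genotype no test was made.

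The loci, groups and settings were chosen with earlier results of these data known. Loci named in the text are ZmMADS47, the 5 highest by mean FPKM, the 3 longest, the 5 smallest and 5 largest ratios among loci averaging 5 FPKM or more, the 3 highest listed in each library alone, and 3 on each side of the span limit. Neighbours, surroundings and the 10 to 20 kb group were added after values were seen. The gene table at hand is on another assembly, so no position was named and no sequence is printed. Counting and weighting were tested on simulated data. Alternatives were other minimums, pseudocounts, scalings, fold and span limits and comparison groups. The calculations ran in Python 3.11.15 (scipy 1.17.1, numpy 2.4.6, pandas 2.3.3), and figures were drawn with matplotlib 3.10.9.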

Additional observations from a re-analysis of the deposited data

How the results depend on the processing

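Against the 51 long loci above 1.4 and 37 below 0.71, a minimum FPKM of 5 gave 25 and 14 of 349, a fold limit of 2 gave 8 and 11, a span of at least 15000 bp gave 94 and 66 of 858, and one of at least 30000 bp gave 20 and 17 of 173. Scaling to the same total gave 103 and 24, and moved the median log2 ratio from 0.087 to 0.26. That scaling raises every log2 ratio by 0.17, and scaling by the median ratio lowers it by 0.07. Without a minimum 56 of 540 were below 0.71, and with a pseudocount of 1 there were 23. Fewer or more loci enter under the changed minimum and span limits, and the shares then ran from 7.16% to 12.6% above and 4.01% to 10.4% below. The shares over all nuclear loci under these settings are not given here, so these counts do not set the long loci apart. The share of comparison loci below 0.71, weighted by level, was 9.40% for 1 to 20 kb, 6.60% for 5 to 20 kb and 5.85% for 10 to 20 kb, where the last group was chosen after seeing the data. The cause was not tested. The ZmMADS47 log2 ratio was -1.13 as deposited and ran from -1.20 to -0.96 under the 4 alternatives tried for it. Leaving out long loci with another listed locus inside removed none. This was fixed beforehand, since no listed nuclear positions overlap, and is no check of the counts. No paired analysis was possible because WT and RNAi have 1 library each.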

Other observations

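The 213 nuclear positions of 20000 bp or more with several values were set aside above. They summed to 61241 FPKM in WT, against 8391 for the 597 with a single value, and held up to 8 values each. Of these, 133 carried equally many values in WT and RNAi and reached 1 FPKM in either; 12 (9.02%) were above 1.4 and 15 (11.3%) were below 0.71, with a median log2 ratio of 0.058. The shares above and below were 17.1% and 13.9% for all single-value nuclear loci and 10.7% and 7.77% for the long ones. A single position on chromosome 4, which holds 8 values, gave 54216 of the WT sum, and without it the other 212 summed to 7025.

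Pairs of long loci with no other listed position between them numbered 17.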
